A study of Xenopus tropicalis with 9 samples.

Results

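Cic knockdown *Xenopus tropicalis* embryos were compared with water-injected controls by RNA-seq at stage 14, the early neurula. Cic (Capicua) is a transcriptional repressor with an HMG box DNA binding domain. Binding of an Fgf ligand to its receptor activates the Ras and Erk kinase cascade, and phosphorylation of Cic by Erk relieves repression of Cic target genes. In the frog embryo Fgf signalling is known for its roles in mesoderm formation and in posterior patterning of the neural plate, while the most anterior neural plate forms the eye field and forebrain.

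The comparison takes in 6 of the 9 libraries in the series, 3 of Cic knockdown embryos and 3 of controls. All embryos were of the Nigerian strain, were collected whole at stage 14 and had been injected. Cic knockdown embryos received a pair of TALEN mRNAs (1 ng of each), for nucleases built to cleave DNA as a pair, directed at the HMG box that *cic-s* and *cic-l* share. Fgf4 embryos, the remaining 3 libraries, received 5 pg of Cska-Fgf4 plasmid, and control embryos received water. The knockdown embryos are the injected F0 generation, in which cells carry a mixture of insertions and deletions, and Cic protein was not measured in these data. The knockdown embryos carry injected mRNA and cut DNA, and the controls carry neither.

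Values are TPM per gene, a measure of abundance corrected for transcript length and rescaled between libraries. Depth behind each value is unknown. Of 23633 genes listed, 13598 had a mean of at least 1.5 TPM in knockdown or control embryos and were tested with limma on log2(TPM + 0.5), with the replicate number as a block. A gene under 1.5 TPM in 1 group was tested only through the other, so its non-overlap and its part in a list share are no added support. Among genes below these include *rgl2*, *klf4*, *btg4*, *cpeb1*, *spdyc*, *birc7*, *zfp36l2.1*, *zfp36l2.2*, *gdf1*, *tdgf1.1*, *grip2*, *fgfbp3* and *mmp1*, low in controls. Others, low in knockdown embryos, include *mpo*, *unc13d*, *tcf21*, *lhx3*, *nkx2-6* and *myf6*. A gene is described as called, and as having risen or fallen, where its unadjusted p was at most 0.01 and its log2 fold change was at least 0.81 in size. The p values given are adjusted over all 13598 genes by the Benjamini-Hochberg method, and log2 fold changes are Cic knockdown minus control. In that fit no gene reached an adjusted p of 0.05 by limma. The lowest was 0.0712, and 2335 genes had an unadjusted p under 0.05. Other fits differed in this. Without the replicate block 6 genes passed, among them *fos*, *rgl2*, *zfp36l2.1* and *zfp36l2.2*, and 275 passed when only the 6 knockdown and control libraries were fitted. Without Cic knockdown library 2 there were 276, without Fgf4 library 2 there were 168, and without replicate 2 in every group there were 45. Libraries summed to between 871757 and 1162165 TPM, and between 3459 and 4864 genes were listed at 0 in each. Markers of the neural plate (*sox2*, *sox3*), epidermis (*tfap2a*, *tp63*), muscle (*myod1*, *actc1*), notochord (*not*, *shh*), endoderm (*sox17a*, *gata6*), neural crest (*snai2*, *foxd3*) and cement gland (*ag1*) were present in all 6 libraries, the lowest value being 6.13 TPM for *shh* in Cic knockdown library 1. In whole embryos, fewer cells of a type and less RNA per cell cannot be told apart.

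Many more genes rose than fell in Cic knockdown embryos. Of the 13598 genes, 543 were called up (3.99%) and 102 were called down (0.75%), so that 84.2% of calls were increases. Genes that rose included the AP-1 factors, stress and p53 response genes and RNAs characteristic of the oocyte. Genes that fell included 18 from the eye field, forebrain and neural plate lists (17.6% of all decreases) and 8 from the myeloid blood and heart field lists (7.8%). Of tested eye field, forebrain and neural plate members 70.0%, 32.1% and 20.8% were called down, against 0.75% of all genes. For the blood and heart field lists these shares were 31.2% and 14.3%. The median log2 fold change over all genes was -0.02. Without the replicate block, 323 genes were called up and 48 down. The number of decreases depended strongly on single libraries. Without Cic knockdown library 2 there were 773 increases and 397 decreases, without Cic knockdown library 1 there were 243 and 25, without Cic knockdown library 3 there were 529 and 43, and without control library 1 there were 276 and 19. Without control library 2 there were 278 increases and 57 decreases, and without Fgf4 library 3, which enters only the estimate of the spread and the block, there were 549 and 192. Omitting replicate 1 from every group gave 210 increases and 14 decreases, omitting replicate 2 gave 531 and 244, and omitting replicate 3 gave 387 and 67.

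**Figure D1:**
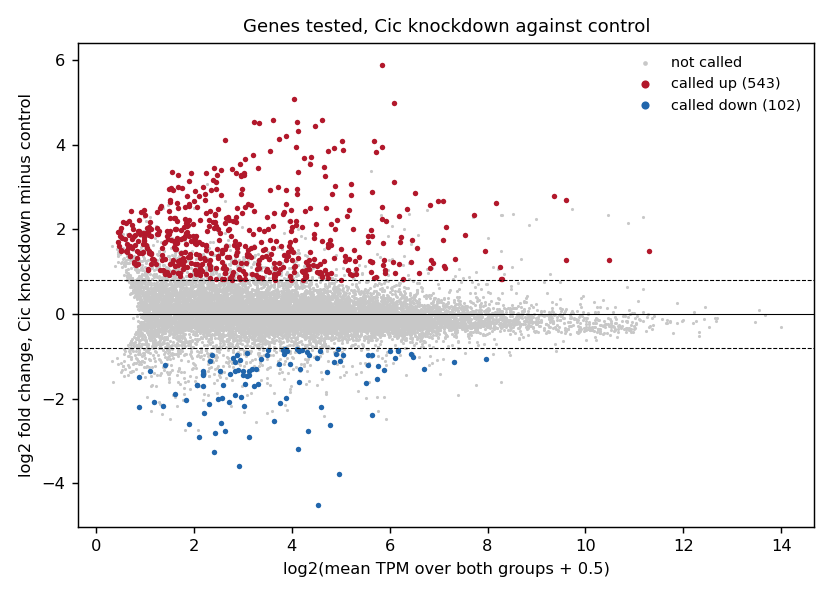
Log2 fold change of Cic knockdown over control (y axis) against the log2 mean abundance in both groups (x axis) for the 13598 genes tested, with dashed lines at the fold-change limits. The 543 genes called up (red) outnumber the 102 called down (blue), and most called genes of either kind lie at low to moderate abundance.

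The level of *cic* itself did not differ detectably. It stood at 14.7, 13.8 and 11.8 TPM in Cic knockdown libraries 1, 2 and 3 and at 14.7, 14.0 and 13.4 TPM in control libraries 1, 2 and 3. The groups overlapped, with a log2 change of -0.07 and a standard error of 0.15 (adjusted p = 0.835). Insertions and deletions need not alter the amount of an RNA, so the level of *cic* is no measure of the knockdown.

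AP-1 transcription factors, dimers of Fos and Jun proteins that act downstream of Mapk signalling, included several of the increases. Of 24 AP-1 and immediate early genes tested, 9 were called up and none down (37.5% against 3.99% of all genes), and the median log2 fold change was 1.17, with 1.23, 1.08 and 0.42 in pairs 1, 2 and 3. Without the replicate block 8 were called up, and leaving out libraries gave between 7 and 10. *fos* stood at 33.6, 30.0 and 26.1 TPM in Cic knockdown libraries 1, 2 and 3 and at 2.30, 3.19 and 5.32 TPM in control libraries 1, 2 and 3. Its lowest knockdown value was well above its highest control value, and the log2 fold change was 2.95 (standard error 0.28, adjusted p = 0.0712). The early response gene *ier3* was at 184, 184 and 308 TPM in the knockdown libraries and 28.0, 57.1 and 90.5 TPM in the control libraries, a log2 change of 2.05 (standard error 0.29). *atf3*, a stress-induced factor that dimerises with Jun proteins, was at 13.2, 13.2 and 10.7 TPM in the knockdown libraries and 5.33, 4.25 and 4.16 TPM in the control libraries. *klf4*, a zinc finger factor of the epidermis and of pluripotent cells, was at 7.01, 4.86 and 3.26 TPM in the knockdown libraries and 0.896, 1.23 and 0.838 TPM in the control libraries. All 3 genes were higher in every knockdown library than in any control library. The remaining called members were *jun* (log2 fold change 2.32), *junb* (1.84), *fosl1* (1.80), *fosb* (1.70) and *jund* (1.33). The call of *jun* was lost without the block, and that of *jund* held in 6 of 12 leave-out fits, which omitted each of the 9 libraries or each replicate number in turn. The abundant early response genes *ier5* (-0.06) and *myc* (-0.03) were not called, and their groups overlapped. Summed over the 28 listed members, the level was 1251.4 to 1368.4 TPM in the knockdown libraries and 913.4 to 953.5 TPM in the control libraries.

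Few other genes of the Fgf and Mapk pathway were called. None of 17 tested feedback inhibitors and Mapk phosphatases was called in the fit of all libraries, without the block, or in any of the 12 leave-out fits. With 3.99% of all genes called up and 0.75% down, few calls would be met in a list of this size. The median log2 fold change of the list was 0.18. *dusp5*, a phosphatase that inactivates Erk, was at 109, 136 and 133 TPM in the knockdown libraries and 89.0, 126 and 147 TPM in the control libraries, and the groups overlapped. Among 13 Fgf ligands and receptors only *fgfbp3*, a binding protein for Fgf ligands, was called (log2 fold change 2.22). This was 7.7% up against 3.99% of all genes. Of 17 Ets factors none rose, and *spib* and *etv2*, described with the blood genes, fell (11.8% against 0.75% of all genes). Single genes linked to Ras family GTPases did rise. *rgl2*, an exchange factor for Ral GTPases, was at 23.1, 11.4 and 8.52 TPM in the knockdown libraries and 0.980, 0.633 and 0.956 TPM in the control libraries, a log2 change of 3.34 (standard error 0.37, adjusted p = 0.0712). *rasl11b*, a divergent small GTPase of the Ras family, was at 81.8, 51.4 and 99.9 TPM in the knockdown libraries and 18.4, 14.2 and 24.3 TPM in the control libraries, with log2 ratios of 2.12, 1.82 and 2.02 in pairs 1, 2 and 3.

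Sgk kinases and alpha-arrestins, which act in membrane transport and in the turnover of membrane proteins, were also represented among the increases. Of 9 members 3 were called up and none down (33.3% against 3.99% of all genes), and the median log2 fold change was 0.71. *sgk1* stood at 377, 266 and 227 TPM in the knockdown libraries and 56.9, 127 and 62.6 TPM in the control libraries. *arrdc2* stood at 20.3, 18.9 and 18.0 TPM in the knockdown libraries and 4.09, 6.86 and 5.73 TPM in the control libraries, a log2 change of 1.72 (adjusted p = 0.0712). *txnip*, which binds thioredoxin, was at 45.7, 24.4 and 52.3 TPM in the knockdown libraries and 6.77, 8.37 and 24.1 TPM in the control libraries and lost its call without the replicate block (unadjusted p = 0.0107). For all 3 genes every knockdown library was above every control library. *lgals9c*, a sugar-binding galectin, was also among the 12 increases with the smallest p, at 193, 83.4 and 24.8 TPM in the knockdown libraries and 16.1, 13.7 and 8.48 TPM in the control libraries.

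Part of the p53 and DNA damage response list rose, and most of its other members were higher. Genes of this response are activated after DNA breaks and act in cell cycle arrest, repair and apoptosis. Of 39 tested members 15 were called up and none down (38.5% against 3.99% of all genes), and 35 were higher in knockdown embryos. The list median was 0.58 in the fit and 0.70, 0.52 and 0.59 in pairs 1, 2 and 3. The count fell to 8 when replicate 1 was left out and was 9 without the replicate block. The death receptor gene *tnfrsf10b* was at 26.7, 18.4 and 31.1 TPM in the knockdown libraries and 1.78, 2.00 and 5.87 TPM in the control libraries, a log2 change of 2.94 (standard error 0.33, adjusted p = 0.0712). *bcl2l11*, which encodes the pro-apoptotic protein Bim, was at 11.8, 8.54 and 10.5 TPM in the knockdown libraries and 3.93, 2.75 and 3.53 TPM in the control libraries. *gadd45b*, a growth arrest and damage-inducible gene, was at 18.4, 12.55 and 21.5 TPM in the knockdown libraries and 6.30, 2.84 and 8.73 TPM in the control libraries. *tp53inp1*, a p53-induced nuclear protein gene, was at 50.8, 46.5 and 27.7 TPM in the knockdown libraries and 13.8, 18.1 and 8.30 TPM in the control libraries, and its call was lost without the block (unadjusted p = 0.0116). Groups did not overlap for any of the 4. Further called members included the receptors *eda2r* (3.08) and *fas* (2.44), *ccng1* (2.62), *plk2* (2.67), the stress protein *sesn1* (2.29), the DNA polymerase *polk* (1.57), the ubiquitin ligase *mdm2* (1.55), *fdxr* (1.35), the nuclease *aen* (1.07) and *gadd45a* (0.82). The abundant member *perp*, at 372, 368 and 234 TPM in the knockdown libraries and 279.6, 269 and 247 TPM in the control libraries, was not called. The summed level of the 40 listed genes was 4304.3 to 4471.1 TPM in the knockdown libraries and 2784.0 to 3203.6 TPM in the controls. In Fgf4 libraries 1, 2 and 3, from embryos given no TALENs, it was 4208.4, 4536.2 and 3095.2 TPM, so that Fgf4 libraries 1 and 2 were also above all controls. A large part of these sums is *btg1*, an abundant member that was not called. Its level reached 2391.9 TPM in Fgf4 library 1, 1640.6 TPM in library 2 and 1011.3 TPM in library 3. Controls 1, 2 and 3 held 1267.9, 1419.3 and 916.8 TPM of *btg1*. Whether the other members rose in Fgf4 embryos was not tested, and the sum does not show it. No control with TALENs directed at another gene is among the libraries, so loss of Cic and the cutting of DNA cannot be told apart in the knockdown libraries.

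**Figure D2:**
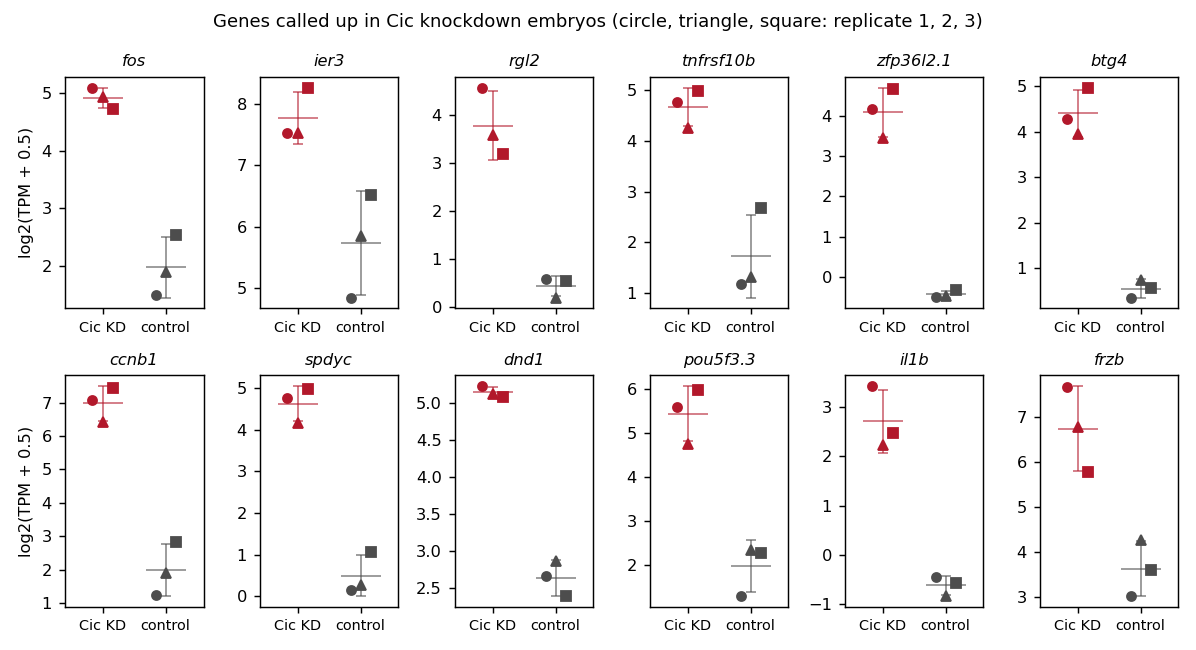
Abundance as log2(TPM + 0.5) of 12 genes called up, in Cic knockdown (left, red) and control (right, grey) libraries, with a symbol for each replicate number, a line for the mean and bars of 1 SD (n = 3 each). In all 12 genes every knockdown library lies above every control library. The genes were picked from those called, and called genes with overlapping groups, such as *dazl*, *dand5* and *nog*, are not shown.

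RNAs that the oocyte stores, and that the embryo normally degrades after the onset of zygotic transcription, were among the increases. Of 40 oocyte and maternal genes tested 13 were called up and none down (32.5%), 32 were higher, and the median log2 fold change was 0.53. Without the replicate block 11 were called up, without replicate 1 or replicate 3 there were 8, and without replicate 2 there were 16. *btg4*, an adaptor for deadenylation of maternal mRNA, was at 18.9, 15.0 and 30.7 TPM in the knockdown libraries and 0.771, 1.17 and 0.987 TPM in the control libraries, a log2 change of 3.85 (standard error 0.44, adjusted p = 0.0712). *h1foo*, the oocyte linker histone, was at 71.2, 46.1 and 206 TPM in the knockdown libraries and 2.88, 5.52 and 8.94 TPM in the control libraries. *cpeb1*, which controls polyadenylation of stored mRNA, was at 21.4, 10.4 and 18.6 TPM in the knockdown libraries and 0.425, 0.689 and 1.22 TPM in the control libraries. *wee2*, an oocyte kinase that inhibits Cdk1, was at 51.1, 30.4 and 56.3 TPM in the knockdown libraries and 2.76, 3.06 and 8.15 TPM in the control libraries. These 4 genes were low in all control libraries and higher in all knockdown libraries, by 3.85, 3.94, 3.75 and 3.27 on the log2 scale. Also called were *velo1* (3.36), *gdf1* (2.91), *zar1l* (2.83), *foxr1* (2.82), *foxi2* (1.96), *patl2* (1.69), *mos* (1.61), *ddx25* (1.27) and *pabpc1l* (1.04). The mitotic cyclin genes *ccnb1.2* and *ccnb2*, abundant members of this list, were not called, while the cyclin B gene *ccnb1*, described below, rose. *ccnb1.2* was at 386, 455 and 749.8 TPM in the knockdown libraries and 426, 522 and 635 TPM in the control libraries, with overlapping groups. *ccnb2* was at 238, 229.8 and 264 TPM in the knockdown libraries and 167, 227 and 168 TPM in the control libraries (log2 fold change 0.39, adjusted p = 0.368).

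A few genes of the mitotic cell cycle rose, while most of the list was lower. Of 49 mitotic genes 4 were called up and none down (8.2% against 3.99% of all genes), while 31 were lower and the median was -0.16. *ccnb1*, a cyclin B gene listed apart from *ccnb1.2*, was at 135, 84.5 and 173 TPM in the knockdown libraries and 1.88, 3.24 and 6.55 TPM in the control libraries, a log2 change of 4.99 (standard error 0.67, adjusted p = 0.0712). Reads could have been divided between such related copies, so that their separate levels are uncertain. *birc5.1*, a survivin gene, was at 51.3, 35.6 and 75.8 TPM in the knockdown libraries and 2.03, 5.11 and 2.43 TPM in the control libraries. The other called members were *wee2* and *arhgap11a.2* (2.18). *spdyc*, a Cdk activator of the Speedy and Ringo family, was at 26.4, 17.3 and 30.8 TPM in the knockdown libraries and 0.610, 0.714 and 1.59 TPM in the control libraries. The apoptosis inhibitor gene *birc7* was at 12.9, 8.92 and 19.0 TPM in the knockdown libraries and 0.212, 0.965 and 1.99 TPM in the control libraries. Every knockdown library exceeded every control library for the 4 genes given with their values. Of 60 genes for DNA replication and break repair 1 was called up (1.7% against 3.99% of all genes). The median of that list was -0.06 (0.05 when libraries were scaled to the same sum).

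Genes that act on mRNA stability included some of the largest increases. Of 64 genes for mRNA decay and translational repression 5 were called up and none down (7.8% against 3.99% of all genes). The list as a whole did not rise, as 38 genes were lower and the median was -0.09. *zfp36l2.1* and *zfp36l2.2*, copies of a gene whose protein binds AU-rich elements and promotes decay, were nearly absent from control embryos. *zfp36l2.1* was at 17.6, 10.4 and 24.8 TPM in the knockdown libraries and 0.204, 0.222 and 0.291 TPM in the control libraries, a log2 change of 4.53 (standard error 0.45, adjusted p = 0.0712). *zfp36l2.2* was at 35.3, 19.1 and 40.8 TPM in the knockdown libraries and 0.169, 0.472 and 0.638 TPM in the control libraries, a log2 change of 5.09 (standard error 0.55). Their reads could likewise have been split between the copies. Control values under the pseudocount make these fold changes depend on it, and over pseudocounts of 0.1 to 1 that of *zfp36l2.1* ran from 5.63 to 3.83. The other called members were *btg4*, *cpeb1* and *nanos1* (2.19), which also count in the oocyte or germ plasm lists. Core and linker histones gave 3 increases of 27 (11.1%), the oocyte gene *h1foo* and 2 core histone genes, *hist1h2am* (4.09) and *hist1h2aa* (3.03).

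Some germ plasm genes rose, but the list as a whole changed little. Summed over the 36 listed genes, the level was 1495.1 to 1825.0 TPM in the knockdown libraries. It was 1349.1 to 1862.5 TPM in the control libraries, so the groups overlapped. Of 32 tested 7 were called up and none down (21.9%), with 1 call left without replicate 1 and 3 without the replicate block or without replicate 3, and the median was 0.12. *grip2*, a germ plasm protein, was at 4.35, 6.97 and 6.26 TPM in the knockdown libraries and 0.253, 0.546 and 0.881 TPM in the control libraries. *dnd1*, which protects germline mRNAs, was at 36.9, 34.1 and 33.3 TPM in the knockdown libraries and 5.82, 6.77 and 4.73 TPM in the control libraries. *velo1*, an RNA of the vegetal cortex of the oocyte, was at 25.6, 24.4 and 43.3 TPM in the knockdown libraries and 1.159, 2.93 and 4.14 TPM in the control libraries. For these 3 genes every knockdown library was above every control library. *dazl*, a translational activator in germ cells, was at 102, 93.4 and 35.6 TPM in the knockdown libraries and 45.1, 66.3 and 14.8 TPM in the control libraries, with overlapping groups, and was called in 4 of the 12 leave-out fits and not without the block. *nanos1* (2.19), *sybu* (1.41) and *plin2* (1.17) completed the list. These oocyte and germ plasm RNAs also differed between the Fgf4 libraries, with *dnd1* at 7.03, 34.9 and 5.495 TPM and *ccnb1* at 2.81, 32.9 and 9.16 TPM in Fgf4 libraries 1, 2 and 3. Fgf4 library 2 was the highest of its group for both genes. The part of stored oocyte RNA in the other differences was not tested.

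Some genes normally transcribed at the blastula and gastrula stages rose. Of 38 tested 6 were called up and 1 down (15.8% up), 28 were higher, and the median was 0.65, with 0.92, 0.07 and 0.88 in pairs 1, 2 and 3. Pair 2 therefore showed little difference, and 16 were called up without replicate 2, against 1 without replicate 1 and 2 without replicate 3. *eomes*, a T-box mesendoderm factor, was at 13.4, 15.8 and 22.1 TPM in the knockdown libraries and 1.49, 8.87 and 3.70 TPM in the control libraries, and was called in 4 of the 12 leave-out fits and not without the block. *foxi2*, a maternal activator of ectodermal genes, was at 19.1, 9.30 and 22.3 TPM in the knockdown libraries and 4.25, 3.08 and 3.88 TPM in the control libraries. It was called in 6 of the 12 and also counts in the oocyte and the epidermal lists. *frzb*, a secreted Wnt antagonist of the organizer, was at 203, 109.9 and 54.3 TPM in the knockdown libraries and 7.65, 18.6 and 11.7 TPM in the control libraries, a log2 change of 3.11 (adjusted p = 0.0738), and was called in all 12. The other called members were *mixl1*, *sox17b.2* and *wnt8a* (1.29), and *hes3* fell (-1.63).

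Mesendoderm and endoderm factors gave 4 increases of 30 and no decrease (13.3%). They were *mixl1*, *eomes*, *sox17b.2* and the Nodal and Bmp antagonist *dand5*, at 17.6, 8.54 and 8.33 TPM in the knockdown libraries and 8.67, 2.86 and 2.28 TPM in the control libraries, for which groups overlapped and no call remained without the block. The count was 8 without replicate 2, 1 without replicate 1 and 0 without replicate 3. In the Nodal pathway *gdf1*, the vegetal ligand Vg1, was at 5.94, 6.88 and 7.23 TPM in the knockdown libraries and 0.317, 0.570 and 0.491 TPM in the control libraries. *tdgf1.1*, a Nodal co-receptor of the Cripto family, was at 10.7, 6.97 and 10.2 TPM in the knockdown libraries and 0.150, 0.741 and 1.23 TPM in the control libraries, and both rose in all 12 leave-out fits. *pou5f3.3*, the oocyte member of the Pou5f3 family of pluripotency factors, was at 47.6, 26.6 and 63.1 TPM in the knockdown libraries and 1.93, 4.59 and 4.30 TPM in the control libraries, a log2 change of 3.48 (standard error 0.67). Among 23 pluripotency factors *pou5f3.3* and *klf4* rose and *sox3* and *prdm14* fell. These were 8.7% up and 8.7% down, against 3.99% and 0.75% of all genes. The list median was 0.65 and 0.01 in pair 2, and 10 genes were called up without replicate 2.

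**Figure D3:**
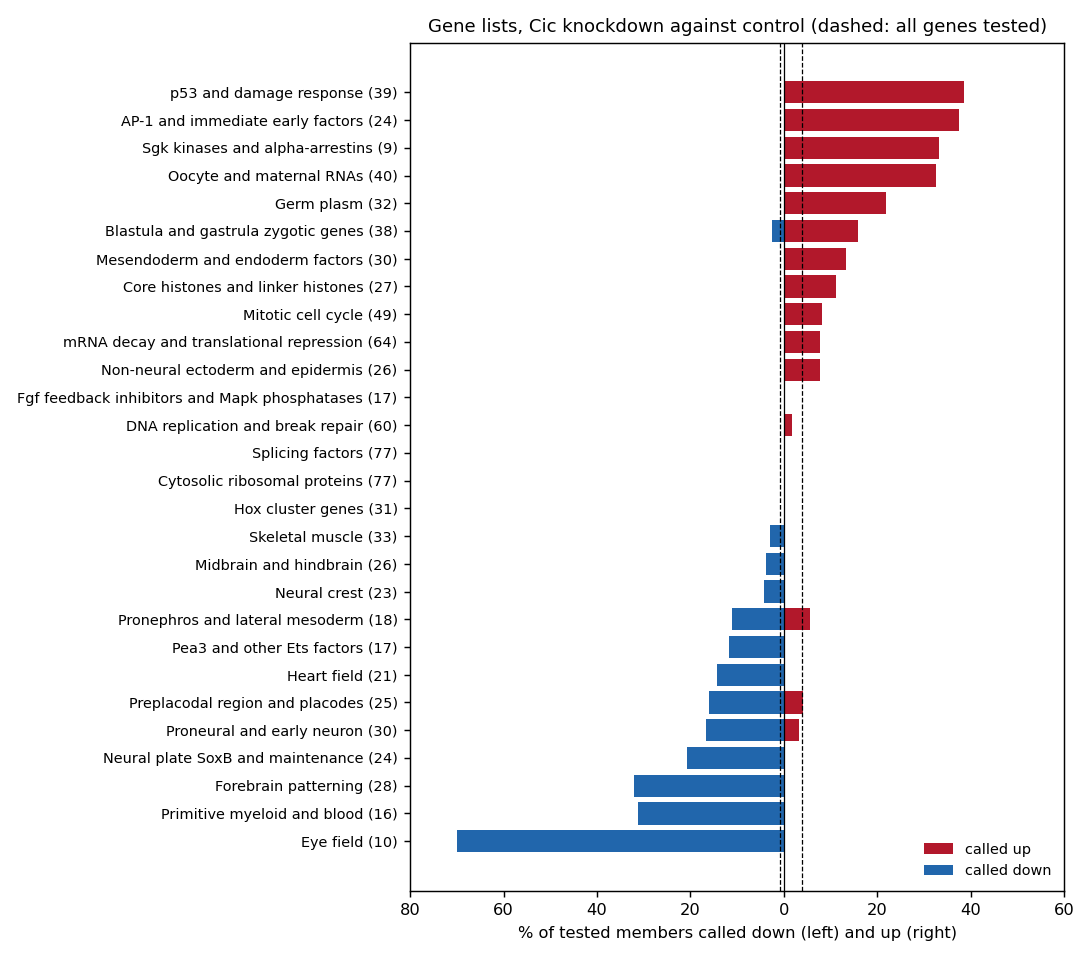
Share of tested members called up (red, right) and called down (blue, left) in Cic knockdown against control for 28 gene lists, with the number of members tested in brackets and dashed lines at the shares over all genes tested (3.99% up and 0.75% down). The p53, AP-1, Sgk and oocyte lists have the highest shares called up, and the eye field, forebrain and blood lists the highest shares called down.

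Most eye field genes fell, with the lowest median of the lists examined. Of 10 eye field genes tested 7 were called down and none up (70% against 0.75% of all genes), all 10 were lower, and the median log2 fold change was -2.12. In pairs 1, 2 and 3 the median was -3.37, -0.82 and -2.09, so that pair 2 differed least. Without replicate 2 there were 8 calls, without replicate 3 there were 2 and without replicate 1 there was 1, while 4 remained without the replicate block. *pax6*, the paired box regulator of eye development, was at 9.99, 23.0 and 15.3 TPM in the knockdown libraries and 99.1, 71.0 and 76.3 TPM in the control libraries, a log2 change of -2.38 (standard error 0.52, adjusted p = 0.0993). *six3*, a homeobox gene of the anterior neural plate, was at 0.546, 9.05 and 10.3 TPM in the knockdown libraries and 27.1, 26.2 and 45.4 TPM in the control libraries. *rax*, the retinal homeobox gene that marks the eye field, was at 0.526, 12.7 and 3.88 TPM in the knockdown libraries and 79.8, 38.8 and 48.8 TPM in the control libraries. *foxd1*, a forkhead gene of the forebrain and retina, was at 2.78, 3.85 and 3.99 TPM in the knockdown libraries and 18.4, 5.43 and 18.7 TPM in the control libraries. For each of these genes the highest knockdown library was below the lowest control library. The calls of *pax6*, *six3*, *rax* and *foxd1* held in 8, 10, 5 and 6 of the 12 leave-out fits, and those of *six3* and *foxd1* were lost without the block. Also called were *lhx2* (-2.57), *six6* (-2.21) and *otx2* (-1.54). Of the members not called, *mab21l2* was at 0.895, 0.688 and 0.521 TPM in the knockdown libraries and 17.9, 1.19 and 3.17 TPM in the control libraries. *tbx3* was at 58.2, 33.9 and 27.0 TPM in the knockdown libraries and 67.6, 63.9 and 45.0 TPM in the control libraries, and its groups overlapped. Summed over 14 listed genes the eye field stood at 86.5, 130.1 and 100.9 TPM in the knockdown libraries and 427.3, 278.6 and 328.9 TPM in the control libraries.

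Forebrain patterning genes overlapped with this list, and some fell. Of 28 tested 9 were called down and none up (32.1%), and the median was -1.06, with -1.67, -0.34 and -1.12 in pairs 1, 2 and 3. Without replicate 1 the count was 1, without replicate 3 it was 3, and without the block it was 6. *irx3*, an Iroquois homeobox factor of the neural plate, was at 31.1, 54.8 and 50.3 TPM in the knockdown libraries and 85.3, 96.0 and 93.5 TPM in the control libraries, a log2 change of -1.05 (standard error 0.18, adjusted p = 0.0765). *dbx1*, a homeobox gene of neural progenitors, was at 1.81, 1.46 and 2.09 TPM in the knockdown libraries and 16.8, 4.76 and 9.31 TPM in the control libraries and was called in 8 of the 12 leave-out fits. The zinc finger genes *fezf1* (-2.02) and *fezf2* (-2.17) and the doublesex-related factors *dmrta1* (-1.68) and *dmrta2* (-1.91) also fell. *otx1*, a head homeobox gene, was at 29.6, 54.5 and 77.2 TPM in the knockdown libraries and 65.1, 72.6 and 80.1 TPM in the control libraries with overlapping groups. Of 26 midbrain and hindbrain genes only *irx3* was called, although 21 were lower and the median was -0.44 (-0.41, -0.37 and -0.76 in pairs 1, 2 and 3), and 4 were called down without replicate 2.

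Some genes of the whole neural plate fell. Of 24 SoxB and neural plate maintenance genes 5 were called down and none up (20.8%), with medians of -0.59, -0.54 and -0.53 in pairs 1, 2 and 3. Leaving out replicate 1 gave 1 call, leaving out replicate 2 gave 2, and 4 remained without the block. *sox2*, the HMG box gene that maintains neural progenitors, was at 60.5, 109 and 137 TPM in the knockdown libraries and 181, 222 and 239 TPM in the control libraries, a log2 change of -1.13 (standard error 0.18, adjusted p = 0.0738). *msi1*, a Musashi RNA-binding protein of neural stem cells, was at 50.6, 76.4 and 53.1 TPM in the knockdown libraries and 181, 131 and 129.96 TPM in the control libraries. Both genes had every knockdown library below every control library, with log2 ratios of -1.57, -1.02 and -0.81 for *sox2* and -1.83, -0.77 and -1.28 for *msi1* in pairs 1, 2 and 3, and *sox2* kept its call in all 12 leave-out fits. *nova2*, a neuronal splicing factor, was at 8.88, 20.9 and 12.9 TPM in the knockdown libraries and 50.4, 41.1 and 21.7 TPM in the control libraries and was called in 4 of the 12. *celf3*, another neuronal RNA-binding factor, was at 15.2, 17.1 and 20.9 TPM in the knockdown libraries and 45.9, 30.8 and 42.4 TPM in the control libraries, and was called in 6 of the 12 and not without the block. *sox3* (-1.06) was the other called member. In the Notch pathway *hes3*, a bHLH repressor, was at 8.82, 16.7 and 48.9 TPM in the knockdown libraries and 42.7, 52.97 and 102 TPM in the control libraries. The receptor gene *notch3* was at 34.7, 40.7 and 22.8 TPM in the knockdown libraries and 90.3, 68.4 and 40.6 TPM in the control libraries. Both were lower in each pair, but the groups overlapped and neither was called without the block. *gli3*, a transcription factor of the Hedgehog pathway, was at 10.8, 7.73 and 9.14 TPM in the knockdown libraries and 24.4, 13.8 and 17.7 TPM in the control libraries, and was also not called without the block.

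Proneural and early neuronal genes were mostly lower. Of 30 tested 5 were called down and 1 up (16.7% down), 24 were lower and the median was -0.84. The count of decreases was 0 without replicate 1 and 1 without the block. *draxin*, a Wnt antagonist and axon guidance factor, was at 6.24, 4.90 and 1.41 TPM in the knockdown libraries and 16.3, 13.6 and 5.75 TPM in the control libraries. *lhx3*, a LIM homeobox gene of motor neurons and pituitary, was at 0.582, 0.686 and 0.151 TPM in the knockdown libraries and 1.96, 2.95 and 1.66 TPM in the control libraries. Groups did not overlap for *lhx3*, and *draxin* overlapped through knockdown library 1. *prdm14*, a zinc finger regulator, was at 3.43, 5.34 and 10.9 TPM in the knockdown libraries and 10.5, 11.7 and 17.1 TPM in the control libraries. *nkain1*, for a partner of the sodium pump, was at 3.88, 6.04 and 2.48 TPM in the knockdown libraries and 16.2, 10.98 and 3.85 TPM in the control libraries. The groups of both overlapped, and the calls of *draxin*, *prdm14* and *nkain1* were lost without the block. *myt1* (-1.12) also fell, and *insm2* (2.01) rose.

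Some placode genes fell, and 1 neural crest gene did. Of 25 preplacodal and placode genes 4 were called down and 1 up (16% down), with a median of -0.46. *foxi4.1*, a forkhead gene of the placodal ectoderm, was at 2.09, 4.32 and 5.42 TPM in the knockdown libraries and 8.23, 10.7 and 11.1 TPM in the control libraries. It was called in 5 of the 12 leave-out fits and not without the block, and the list gave 6 decreases without replicate 2, 2 without replicate 1 and 0 without replicate 3. *dmrta1* was at 2.38, 3.53 and 1.09 TPM in the knockdown libraries and 14.4, 5.37 and 6.42 TPM in the control libraries and was also called in 5 of the 12. Of 23 neural crest genes only *twist1*, a mesenchymal bHLH factor, was called, at 54.7, 60.4 and 58.8 TPM in the knockdown libraries and 137, 89.8 and 131 TPM in the control libraries, and not without the block. The neural crest median was -0.15. *ag1*, a gene of the mucus-secreting cement gland at the front of the head, was at 154, 329.8 and 266 TPM in the knockdown libraries and 492, 439 and 412 TPM in the control libraries. Its groups did not overlap, but its p missed the limit (log2 fold change -0.91, adjusted p = 0.200).

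**Figure D4:**
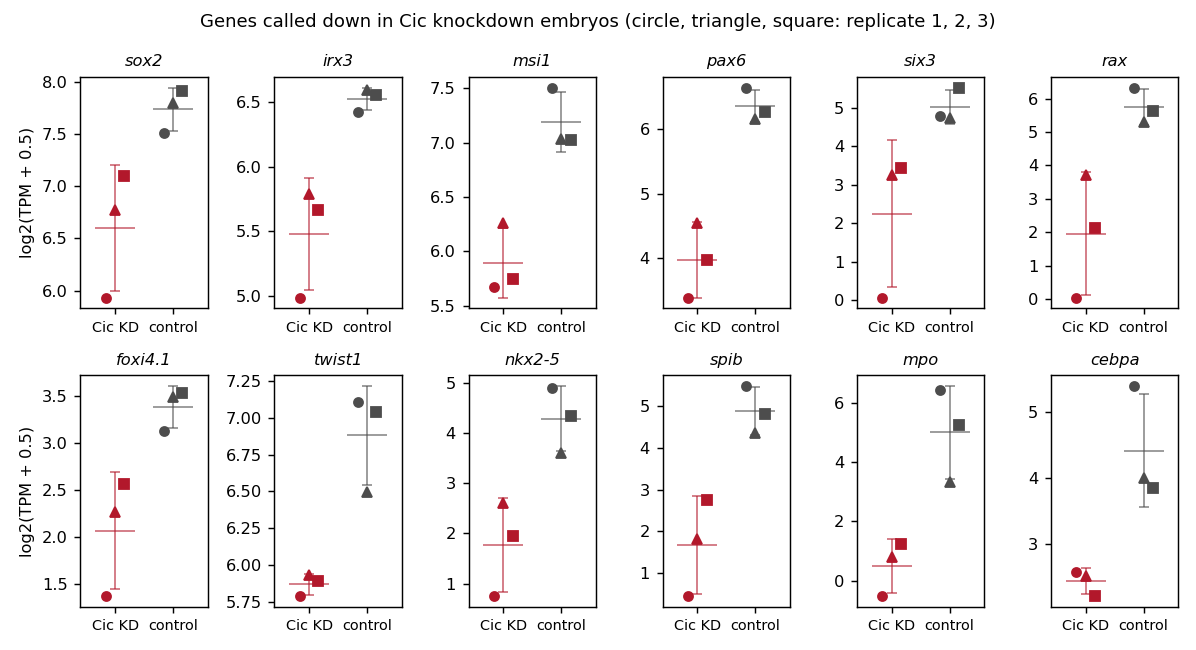
Abundance as log2(TPM + 0.5) of 12 genes called down, in Cic knockdown (left, red) and control (right, grey) libraries, with a symbol for each replicate number, a line for the mean and bars of 1 SD (n = 3 each). Every knockdown library lies below every control library in all 12 genes, and Cic knockdown library 1 is the lowest of its group for 11 of them. The genes were picked from those called, and called genes with overlapping groups, such as *hes3*, *notch3* and *etv2*, are not shown.

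Few epidermal genes were called. Of 26 genes of the non-neural ectoderm, *klf4* and *foxi2* were called up (7.7% against 3.99% of all genes) and none down. The median was 0.15. The keratin gene *krt8* was at 5276, 5454 and 3813 TPM in the knockdown libraries and 4503, 4936 and 4537 TPM in the control libraries. *gata2*, a factor of the ventral ectoderm, was at 257, 289.6 and 375 TPM in the knockdown libraries and 236, 413 and 401 TPM in the control libraries. Groups overlapped for both genes. None of 28 ionocyte and multiciliated cell genes and none of 85 axonemal and ciliary genes was called. Over all genes 3.99% were called up and 0.75% down, so few calls would be met among 28 genes. The median of the ciliary list was -0.35, 0.36 and 0.05 in pairs 1, 2 and 3. *foxi1*, which specifies ionocytes, was at 52.4, 44.0 and 219 TPM in the knockdown libraries and 72.3, 70.4 and 113 TPM in the control libraries, with knockdown library 3 above all others and knockdown libraries 1 and 2 below all controls.

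Within the mesoderm some blood and heart field genes fell. Of 38 primitive myeloid and blood genes listed 16 were tested, and the other 22 were under the filter in both groups. Of those tested 5 were called down and none up (31.2%), and the median was -1.12. Without replicate 1 there were 3 calls, and 4 without replicate 2, replicate 3 or the block. *mpo*, the myeloperoxidase gene of granulocytes, was at 0.193, 1.24 and 1.83 TPM in the knockdown libraries and 85.3, 9.49 and 38.1 TPM in the control libraries, the largest decrease among these genes (log2 fold change -4.51, standard error 0.79, adjusted p = 0.0765). *spib*, an Ets factor needed for primitive myeloid cells in *Xenopus*, was at 0.867, 3.03 and 6.29 TPM in the knockdown libraries and 44.0, 19.8 and 27.5 TPM in the control libraries. *cebpa*, a granulocyte factor, was at 5.44, 5.24 and 4.12 TPM in the knockdown libraries and 41.4, 15.4 and 13.8 TPM in the control libraries. Every knockdown library was below every control library for *mpo*, *spib* and *cebpa*, although the control values spread widely. *etv2*, an Ets factor of blood and endothelial precursors, was at 8.37, 3.92 and 9.72 TPM in the knockdown libraries and 19.5, 7.75 and 27.6 TPM in the control libraries, lower in each pair but with overlapping groups, and not called without the block. *gfi1* (-1.98) was the other called member, and *unc13d*, a gene for granule release, was at 0.184, 0.312 and 0.536 TPM in the knockdown libraries and 5.49, 1.161 and 4.77 TPM in the control libraries.

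Of 21 heart field genes 3 were called down and none up (14.3%), with a median of -0.53. They were the NK2 homeobox genes *nkx2-5*, *nkx2-6* and *nkx2-3*, which mark the heart field. *nkx2-5* was at 1.18, 5.57 and 3.34 TPM in the knockdown libraries and 29.6, 11.7 and 19.9 TPM in the control libraries. *nkx2-6* was at 0.270, 1.88 and 1.09 TPM in the knockdown libraries and 10.7, 4.36 and 6.49 TPM in the control libraries. *nkx2-3* was at 1.38, 2.51 and 1.89 TPM in the knockdown libraries and 9.097, 3.89 and 5.49 TPM in the control libraries. Groups did not overlap for these genes, and they were called in 4, 5 and 6 of the 12 leave-out fits. The list gave 1 decrease without replicate 1 or replicate 3 and 4 without replicate 2 or the block. In lateral mesoderm *tcf21*, a bHLH factor of kidney and heart precursors, was at 0.916, 0.916 and 0.868 TPM in the knockdown libraries and 5.98, 3.98 and 5.96 TPM in the control libraries, a log2 change of -2.03 (standard error 0.32, adjusted p = 0.0738), and was called in all 12.

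Skeletal muscle genes were mostly lower but rarely called. Of 33 tested 31 were lower and only *myf6*, a myogenic bHLH factor, was called, at 1.42, 1.57 and 1.12 TPM in the knockdown libraries and 7.48, 2.63 and 7.73 TPM in the control libraries. The median was -0.93, with -0.83, 0 and -1.94 in pairs 1, 2 and 3, and 12 were called down without replicate 2. *actc1*, the cardiac alpha actin gene of the early myotome, was at 1529, 1147 and 1062 TPM in the knockdown libraries and 1864, 1109.6 and 2842 TPM in the control libraries. The myosin light chain gene *mylpf* was at 615, 533 and 439 TPM in the knockdown libraries and 958, 375 and 1536 TPM in the control libraries. Control library 2 had the lowest control values of both muscle genes, below all 3 knockdown libraries for *mylpf*. Among 30 notochord and organizer genes *frzb*, *dand5* and the Bmp antagonist *nog* (0.97) rose and *otx2* fell. That list had 8 decreases without replicate 2 and 0 without replicate 3. Of 23 posterior mesoderm and tailbud genes only *wnt8a*, at 149, 126 and 212 TPM in the knockdown libraries and 41.4, 74.6 and 87.8 TPM in the control libraries, was called, and it was called in 8 of the 12 leave-out fits. None of 31 Hox genes was called against control, although 26 were lower and the median was -0.39.

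**Figure D5:**
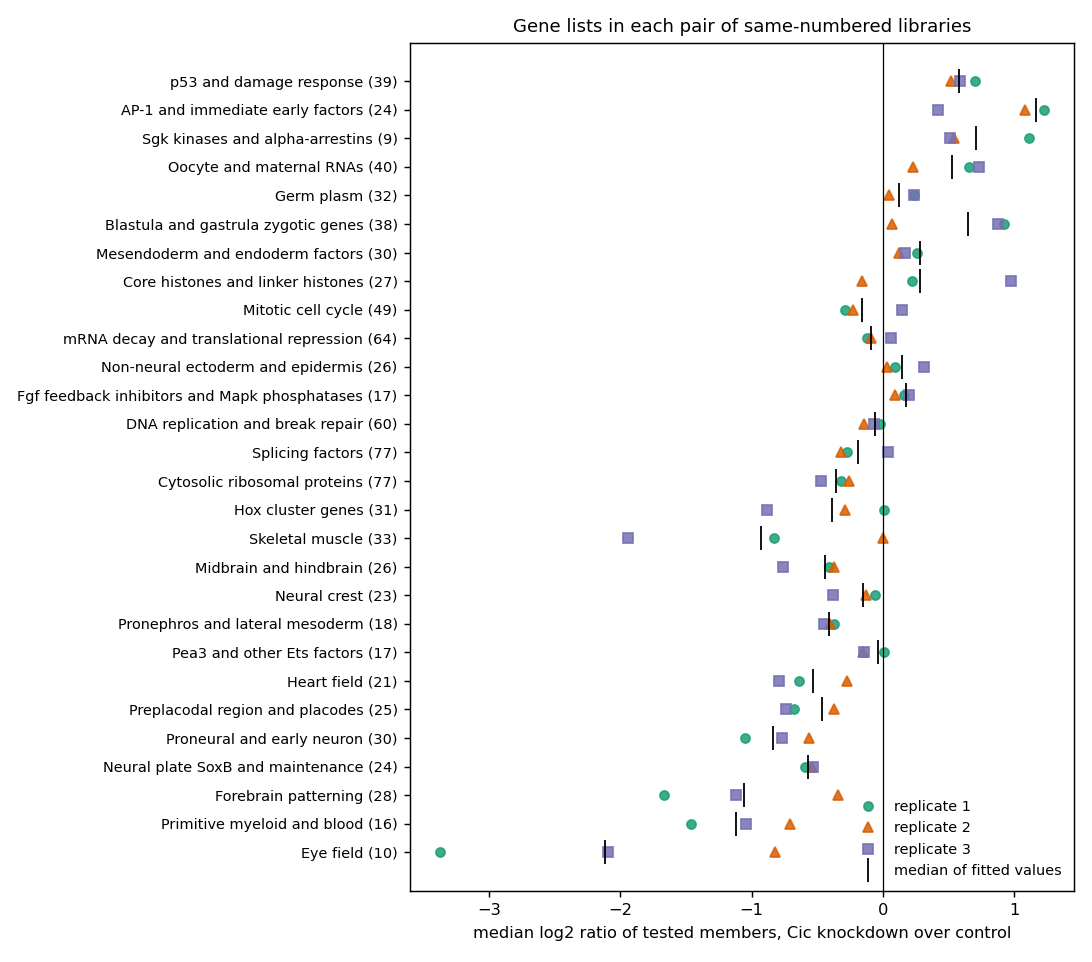
Median log2 ratio of Cic knockdown over control (x axis) in each pair of same-numbered libraries for 28 gene lists, with a tick at the median of the fitted log2 fold changes and the number of members tested in brackets. The eye field ran from -3.37 to -0.82, while the p53 list lay between 0.52 and 0.70 in all 3 pairs.

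Housekeeping genes moved by small amounts. Of 77 cytosolic ribosomal protein genes 76 were lower, none was called and the median was -0.36 (-0.42 by median-of-ratios scaling and -0.26 when libraries were scaled to the same sum). Of 77 splicing factors 69 were lower and none was called, with a median of -0.19 and -0.27, -0.32 and 0.04 in pairs 1, 2 and 3. None of 93 genes for oxidative phosphorylation was called (median -0.11). Genes of sterol and fatty acid synthesis were mostly higher, 16 of 19, with 1 call and a median of 0.57. That call was *lss*, lanosterol synthase, at 19.7, 16.7 and 33.2 TPM in the knockdown libraries and 4.67, 5.03 and 11.3 TPM in the control libraries. The sign of these 4 medians was the same under both other scalings.

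A few genes of polyamine metabolism and of the extracellular matrix rose. *azin2*, an activator of polyamine synthesis, was at 391, 207 and 113 TPM in the knockdown libraries and 19.6, 32.5 and 53.5 TPM in the control libraries, a log2 change of 2.67 (standard error 0.56, adjusted p = 0.0943). *sat1*, which acetylates polyamines for breakdown or export, was at 142, 144 and 175 TPM in the knockdown libraries and 57.7, 87.9 and 73.2 TPM in the control libraries. Both were higher in every knockdown library than in any control library. Of 17 polyamine genes tested 2 were called (11.8% against 3.99% of all genes), and the list median was 0.12. Of 44 collagen, laminin, fibronectin and integrin genes 3 were called up and none down, *col1a2*, *col6a1* and *col6a2*. That share of 6.8% is not far above the 3.99% of all genes. In this list 27 genes were lower, the median was -0.16, and 11 were called down without replicate 2. The fibrillar collagen gene *col1a2* was at 19.1, 8.08 and 13.2 TPM in the knockdown libraries and 1.47, 0.955 and 3.69 TPM in the control libraries. *col6a1*, which was called in 4 of the 12 leave-out fits, was at 13.8, 7.16 and 4.27 TPM in the knockdown libraries and 0.757, 1.15 and 2.24 TPM in the control libraries. Of 25 metalloproteinases and inhibitors 2 were called up (8.0%), and the list median was 0.03. The collagenase gene *mmp1* was at 17.2, 7.87 and 5.73 TPM in the knockdown libraries and 0.528, 0.331 and 0.410 TPM in the control libraries. *adamts1*, for a secreted protease, was at 32.9, 32.2 and 43.0 TPM in the knockdown libraries and 4.40, 10.4 and 10.1 TPM in the control libraries. Both had every knockdown library above every control library. For *mmp1*, under 1.5 TPM in controls and tested only through the knockdown group, this separation is no added support.

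The remaining decreases with the smallest p belonged to no list described above. *znf219*, a zinc finger gene, was at 3.05, 5.41 and 4.89 TPM in the knockdown libraries and 14.4, 12.202 and 9.102 TPM in the control libraries. *prelid1*, for mitochondrial lipid transfer, was at 9.69, 9.18 and 9.80 TPM in the knockdown libraries and 15.7, 16.99 and 20.7 TPM in the control libraries. Groups did not overlap for either gene. *prelid1* lost its call when libraries were scaled to the same sum.

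A direct comparison of Cic knockdown with Fgf4 embryos asked where both treatments differ. It uses the same knockdown libraries as above, and 239 of 13607 genes were called higher (1.76%) and 51 lower (0.375%) in Cic knockdown than in Fgf4 embryos, with a lowest adjusted p of 0.331. Without the replicate block 135 were higher and 8 lower. Without replicate 1 there were 33 and 17, without replicate 2 there were 367 and 305, and without replicate 3 there were 604 and 57. Among single libraries, the lowest counts were 65 higher genes without Cic knockdown library 1 and 16 lower genes without Fgf4 library 1, and the highest were 638 higher genes without Fgf4 library 3 and 242 lower genes without Cic knockdown library 2. Some oocyte and p53 response genes were higher in Cic knockdown embryos. Of 40 oocyte and maternal genes 10 were called higher and none lower, with 9 higher without the block and 2 without replicate 1 or replicate 3. Of 39 p53 response genes 7 were higher and none lower, with 2 higher without the block and 0 without replicate 1. *ssx2ip*, a centrosomal gene, was at 17.01, 12.3 and 12.1 TPM in Cic knockdown and 4.50, 4.78 and 5.58 TPM in Fgf4 embryos (log2 difference 1.38, standard error 0.21). *immp1l*, a mitochondrial peptidase gene, was at 18.4, 10.3 and 18.4 TPM in Cic knockdown and 3.33, 5.0997 and 4.01 TPM in Fgf4 embryos. *ung*, a uracil DNA glycosylase gene, was at 18.0, 12.9 and 16.7 TPM in Cic knockdown and 5.86, 6.39 and 8.29 TPM in Fgf4 embryos. The groups did not overlap for any of these 3 genes.

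Hox genes, which pattern the axis from hindbrain to tail, were in part lower in Cic knockdown than in Fgf4 embryos. Of 34 tested 12 were called lower, among them *hoxc6* and *hoxd13*, the hindbrain gene *hoxb1* was called higher and the median log2 difference was -0.97. The count of lower genes was 1 without the replicate block, 1 without replicate 1, 19 without replicate 2 and 0 without replicate 3, and 22 without Fgf4 library 2. *hoxd10* was at 8.399, 3.32 and 3.16 TPM in Cic knockdown and 38.3, 6.19 and 22.8 TPM in Fgf4 embryos, a log2 difference of -1.87 (standard error 0.39, adjusted p = 0.331), with -2.13, -0.81 and -2.67 in pairs 1, 2 and 3. Groups overlapped through Fgf4 library 2, and the call was lost without the block. *avp*, the vasopressin precursor gene, was at 18.9, 6.002 and 10.5 TPM in Cic knockdown and 57.5, 33.4 and 34.4 TPM in Fgf4 embryos, with no overlap. *esam*, an endothelial adhesion gene, was at 4.70, 2.55 and 0.759 TPM in Cic knockdown and 11.7, 4.87 and 2.48 TPM in Fgf4 embryos and was not called without the block. Of the eye field and forebrain lists, 6 and 24 genes were tested in the direct comparison and none was called. With 1.76% of all genes called higher and 0.375% lower, few calls would be met in lists of this size. *rax* stood at 0.526, 12.7 and 3.88 TPM in Cic knockdown and 3.12, 1.198 and 13.5 TPM in Fgf4 embryos. Its log2 difference was -0.18 with a standard error of 0.98, so a difference in either direction is not excluded. *fos* stood at 33.6, 30.0 and 26.1 TPM in Cic knockdown and 34.1, 49.3 and 34.9 TPM in Fgf4 embryos, a log2 difference of -0.38 with a standard error of 0.28, and was not called.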

How the data were processed

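RNA-seq of 9 libraries of whole *X. tropicalis* embryos was used, 3 each of Cic knockdown, Fgf4 and control embryos, with groups and replicate numbers taken from the labels. The authors trimmed reads with cutadapt, used Salmon (genome version 9.1) for quantification of the poly(A), directional libraries and modelled genes with sleuth on batch and treatment. Tool versions are not given in the sources used here. The deposited signal is gene-level TPM, rescaled between libraries by a factor that is not named in the sources used here. It keeps no counts, so precision rests on the 3 replicates. The authors' mean columns were not used.

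Genes were fitted with limma 3.58.1 in R 4.3.3 on log2(TPM + 0.5), in 1 model of the 9 libraries, with terms for condition and for replicate number and a variance prior following abundance. Tests were two-sided. The fit was also run on simulated data with planted changes, and the outcome is not reported here. Same-numbered libraries deviated together from their group means (r = 0.608, 0.564 and 0.725 for replicates 1, 2 and 3), and the study's model has embryo batch as a term, although which library belongs to which batch is not given in the sources used here. The labels do not say that replicates come from separate clutches, and p values measure the spread between these libraries only. A log2(TPM + 0.5) scale understates changes of low genes.

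Gene lists and the comparison were chosen with earlier results of these data known. Genes with a mean of at least 1.5 TPM in either group were tested. Genes given with their values follow a rule: *cic*, the 12 increases and 12 decreases with the smallest p and the same sign in all pairs, up to 4 called members of a list per direction with up to 2 abundant members that were not called, and 6 genes per direction for the direct comparison. Further called members were named after their values were seen. Counts of lists are read against the share of all genes called, with no test of a list. Some genes belong to several lists and are counted in each. Symbols are as deposited. No sequences are shown. Some genes and 1 gene list are not reported here.

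Alternatives were no replicate block, other pseudocounts, filters, scalings, a constant variance prior, the 6 compared libraries alone, an adjusted p limit, and 12 fits leaving out each library or replicate number.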

Additional observations from a re-analysis of the deposited data

How the results depend on the processing

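Against control there were 543 increases and 102 decreases. Without the replicate block there were 323 and 48, and the direct comparison with Fgf4 embryos gave 135 genes higher and 8 lower in place of 239 and 51. With a mean of at least 5 TPM there were 346 increases against control, and 156 higher and 30 lower in the direct comparison. Median-of-ratios scaling gave 165 decreases, and scaling to the same sum gave 54 decreases and 24 lower genes in the direct comparison. A fit of only the 6 compared libraries gave 207 decreases against control, and 129 higher and 30 lower in the direct comparison. At an adjusted p of at most 0.05 by limma, in the blocked fit of 9 libraries, the counts were 0, 0, 0 and 0, although 2335 and 1843 genes had an unadjusted p under 0.05. Applying that limit to the other fits was chosen after seeing the data. Against control 6 genes passed without the replicate block, 275 with the 6 compared libraries, and 0 under other pseudocounts, filters, scalings or variance prior. Leaving out libraries or replicate numbers gave 0 to 276, and 0 to 24 in the direct comparison. Leaving out libraries or replicate numbers gave 210 to 773 increases and 14 to 397 decreases against control, and 33 to 638 higher and 16 to 305 lower genes in the direct comparison. The fewest against control were without replicate 1 and the most without Cic knockdown library 2.

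Of 166 genes named, tissue markers of the opening and *btg1* aside, 150 were called. Of these, 52 were called in every alternative except the adjusted p limit, which was not applied to single genes. In all 12 leave-out fits 56 were called. The call of 44 was lost without the replicate block, and no called gene changed sign. The sign of 8 genes that were not called did change. Leaving out libraries gave log2 fold changes of -0.11 to 0.00 for *cic*, -0.21 to 0.31 for *dusp5*, -0.22 to 0.06 for *ccnb1.2*, -0.47 to 0.13 for *gata2*, -0.08 to 0.24 for *krt8*, -0.18 to 0.04 for *ier5*, -0.19 to 0.15 for *myc* and -0.82 to 0.73 for *foxi1*. Scaling to the same sum gave 0.02 for *cic*, 0.06 for *ccnb1.2*, 0.03 for *ier5*, 0.07 for *myc* and 0.03 for *foxi1*, and median-of-ratios scaling -0.02 for *krt8*. The causes of these shifts were not tested. Depth behind the values is unknown.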

Other observations

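Immune and cytokine signalling genes were put together as a list after their values were seen, so their count is a description only. Of 77 listed 52 were tested. Of these 20 were called up and none down (38.5% against 3.99% of all genes), 45 were higher and the median log2 fold change was 0.43. The count was 14 without the replicate block and 8 without replicate 1. *il1b*, an inflammatory cytokine, was at 10.3, 4.197 and 5.04 TPM in the knockdown libraries and 0.230, 0.0591 and 0.178 TPM in the control libraries. *tgfb1* was at 8.90, 3.98 and 3.28 TPM in the knockdown libraries and 1.67, 0.0885 and 1.06 TPM in the control libraries. *stat3.1*, a mediator of cytokine signalling, was at 11.9, 7.88 and 3.68 TPM in the knockdown libraries and 0.985, 1.36 and 1.05 TPM in the control libraries. Every knockdown library was above every control library for these 3 genes. Their control means were under 1.5 TPM, so they were tested only through the knockdown group and this separation is no added support. The list also held *c3ar1* (3.83), a complement receptor, *stat3.2* (2.58), the cytokine *lif*, *ccl4* (2.21), *socs3* (1.69), *nfkbiz* (1.52) and *myd88* (1.34). These increases stood beside decreases of the myeloid genes *spib* and *mpo*. *casp10* (2.35), an initiator caspase gene outside the list, also rose.

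A list of oocyte transcription and growth factors was put together in the same way. Of 21 listed 16 were tested. Of these 11 were called up and none down (68.8% against 3.99% of all genes), and the median was 1.90. This count too is a description only. Any member under 1.5 TPM in controls was tested only through the knockdown group, so its part in this share is no added support. Over the other settings with no library left out, the log2 fold change of *bmp15* ran from 1.31 to 3.53. Without replicate 1 there were 3 calls, and 4 without replicate 3. They included the oocyte factors *figla* (2.00) and *lhx8* (1.87), the oocyte growth factors *gdf9* (2.04) and *bmp15* (1.93), *taf4b* (1.29), the meiotic cohesin gene *smc1b* (2.79) and *tex15*. The summed level of the 21 listed genes was 259.1 to 311.6 TPM in Cic knockdown libraries and 110.3 to 171.8 TPM in control libraries. Fgf4 libraries 1, 2 and 3 stood at 109.4, 225.4 and 108.8 TPM, library 2 being the highest.

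Other pathways gave single calls. Among Wnt modulators and feedback genes *frzb* and *rspo1* (1.28) rose and *draxin* and *sfrp2* (-1.33) fell. In the Hedgehog pathway *ihh* (1.88) rose and *gli3* fell, and in the Notch pathway *hes2* (1.83) rose while *hes3* and *notch3* fell. *osr1* (0.87), a kidney precursor gene, rose, and *ripply2.2* (-0.89), a gene of somite boundaries, fell.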
